A study of Mus musculus with 26 samples.

Results

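Osteoblasts of old Kdm2b knockout mice (CKO-OLD) were set against osteoblasts of young wild type mice (YOUNG) by RNA sequencing, with 3 libraries in each group. These 6 libraries, chosen by their titles, are among the 18 RNA libraries and 26 samples of the series, and every gene of the count table was read. The CKO-OLD cells came from femurs of Kdm2b fl/fl, Ocncre, Ai14 mice on C57BL/6J, in which the CxxC domain of Kdm2b was deleted conditionally, and they were screened after isolation. The titles call them old, and no age in months is given for them. The protocol text that gives these sources is written for CUT&Tag and is carried by the RNA samples as well. The YOUNG cells came from femurs of C57BL/6J mice of 3 months with no driver, reporter or floxed allele named. Both were cultured in DMEM with fetal bovine serum. Age, genotype, the driver and reporter, and the screening all differ between these groups and cannot be told apart here. The labels do not name separate animals or cultures for the libraries of a group. The p-values and standard errors come from a fit over all 18 RNA libraries and reflect the spread within its groups. That spread may therefore be technical.

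Kdm2b binds unmethylated CpG-rich DNA through its CxxC domain and brings the Polycomb complex PRC1.1 to it, where the complex ubiquitinates histone H2A at lysine 119. That mark is associated with silencing of developmental genes, among them transcription factors of other lineages. The series addresses this complex, Wnt signalling and bone remodelling. Ocn (Bglap) encodes osteocalcin, and an Ocn-driven Cre is active in mature osteoblasts, so cells at earlier stages need not have recombined. The groups named beside this comparison are OLD (C57BL/6J, 18 months), CKO-YOUNG (the knockout, young), CON-YOUNG (Ocncre Ai14 control, young) and CON-OLD-iBP (an old control group given iBP, a name that the labels do not expand).

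The libraries of both groups carried the genes of osteoblasts. Sp7, a transcription factor that osteoblasts require, stood at 124, 146 and 119 CPM in CKO-OLD 1, 2 and 3, against 111, 122 and 109 CPM in YOUNG 1, 2 and 3. Alpl, the alkaline phosphatase of mineralising cells, stood at 335, 672 and 308 CPM in CKO-OLD, against 461, 355 and 635 CPM in YOUNG. CPM here are counts scaled to a normalised library of 1000000, computed from the deposited counts. The main collagen of bone, Col1a1, was at 11986, 13548 and 7138 CPM in CKO-OLD, against 17330, 17136 and 13779 CPM in YOUNG. Kdm2b itself stood at 23.4, 57.2 and 28.4 CPM in CKO-OLD, against 37.2, 37.5 and 22.6 CPM in YOUNG, so the groups overlapped. Its log2 fold change was 0.16 ± 0.41 (SE, n = 3 each; edgeR adjusted p = 0.944). A deletion of 1 domain cannot be checked from counts summed over the gene.

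The libraries differed in ways that the group labels do not give. Total counts were 46272076, 53254420 and 52694957 in CKO-OLD, against 77698781, 68038252 and 56792030 in YOUNG. Malat1, a nuclear RNA, took 0.176% to 0.182% of the counts in CKO-OLD and 0.178% in YOUNG 3, against 0.0386% and 0.0296% in YOUNG 1 and 2. The female-specific RNA Xist was at 0.28 CPM or less in CKO-OLD and 0.251 CPM in YOUNG 3, against 432 and 391 CPM in YOUNG 1 and 2. The Y-linked gene Ddx3y stood at 66.1 to 76.5 CPM in CKO-OLD and 70.4 CPM in YOUNG 3, and at 0 in YOUNG 1 and 2. YOUNG 1 and 2 thus stood apart from the other 4 libraries in both respects. The OLD libraries named below were mixed in the same way. OLD 1 and 3 had Malat1 at 0.0377% and 0.0368% and Xist at 481 and 454 CPM, with Ddx3y at 0. OLD 2 had Malat1 at 0.173%, Xist at 0.0707 CPM and Ddx3y at 36.2 CPM. The summed share of 26 macrophage and monocyte markers was 0.258%, 0.692% and 0.162% in CKO-OLD, against 1.77%, 1.15% and 0.388% in YOUNG. Values against YOUNG 3 alone (library set 3, by Malat1 share) therefore stand beside the results below.

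The distance between the groups was set against the spread within them. Across 16566 genes, log2 CPM of a CKO-OLD and a YOUNG library correlated with a median Spearman coefficient of 0.9512 over the 9 pairs, from 0.9317 to 0.9659. Pairs within CKO-OLD had a median of 0.9775, and pairs within YOUNG had 0.9345. YOUNG 1 and 2 correlated at 0.9863 and the other 2 YOUNG pairs, both with YOUNG 3, at 0.9291 and 0.9345, and the pairs between the groups lay inside the range of the pairs within YOUNG. CKO-OLD and OLD libraries, which share the CKO-OLD side, had a median of 0.9618, and YOUNG and OLD libraries, which share the YOUNG side, had 0.9618. These correlations run across genes, which are not independent replicates.

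**Figure D1:**
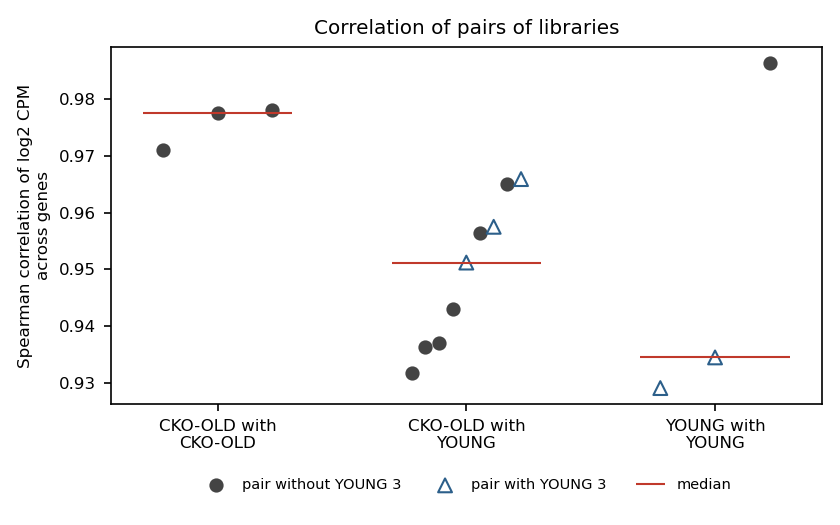
Spearman correlation of log2 CPM across 16566 genes (vertical axis) for each pair of libraries within CKO-OLD, between CKO-OLD and YOUNG, and within YOUNG; triangles are pairs with YOUNG 3 and lines are medians. The 9 pairs between the groups run from 0.9317 to 0.9659, and within YOUNG only the pair without YOUNG 3, at 0.9863, lies above them.

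No gene passed the threshold. edgeR's quasi-likelihood test, fitted over all 18 RNA libraries, gave 0 of 16566 genes (0%) with an adjusted p under 0.05, and the smallest adjusted p was 0.084. CKO-OLD against YOUNG gave 1813 genes (10.9%) with an unadjusted p under 0.05, 679 higher (4.1%) and 1134 lower (6.85%) in CKO-OLD. For 3199 genes (19.3%) the 2 groups did not overlap, that is, every CKO-OLD library lay on one side of every YOUNG library, 1587 higher (9.58%) and 1612 lower (9.73%). DESeq2 on the same groups called 349 genes, 181 higher (1.09%) and 168 lower (1.01%). limma-voom called Tmem132e and Tcf24, both higher. Without YOUNG 3, edgeR called 3 genes, Clmp and Tns2 higher and Tnfaip3 lower, and put 2590 under an unadjusted p of 0.05. Of the comparisons that share libraries with this one, CKO-OLD against OLD called Tcfl5 alone (0.00604%), higher in CKO-OLD. That comparison had 0 calls without OLD 1 or OLD 3, and 48 without OLD 2, which leaves the close pair OLD 1 and 3. OLD against YOUNG called 0 genes (0%, with 554 at an unadjusted p under 0.05 and 40 by DESeq2). No gene below is therefore called changed by the edgeR test, and the values are given as levels.

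Among genes whose groups did not overlap and whose higher group averaged at least 5 CPM, 12 with the smallest p in each direction are described first. The 12 higher in CKO-OLD had adjusted p between 0.084 and 0.0897, and the 12 lower had 0.084 to 0.162. Of the 12 higher genes DESeq2 called 12 (1.09% of all genes were called higher), and of the 12 lower genes 12 (1.01% lower). The fit with a set term called 2 of the higher and 1 of the lower genes (0.0543% of all genes). The fit on the 6 libraries alone called 2 and 0 (0.0458%). These genes were picked for small p and no overlap in the same libraries, so such calls are no separate support.

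Tmem132e encodes a transmembrane protein known from the inner ear and brain. It was at 4.56, 14.3 and 8.02 CPM in CKO-OLD 1, 2 and 3, against 0, 0 and 0 CPM in YOUNG 1, 2 and 3, and no count fell in any YOUNG or OLD library. Against a floor of 3 counts over the YOUNG group, the level in CKO-OLD was at least 595-fold higher (edgeR adjusted p = 0.084). Tmem200b, a transmembrane protein gene, had 13.3, 13.3 and 11.7 CPM in CKO-OLD, against 2.03, 1.74 and 1.56 CPM in YOUNG, with a log2 fold change of 2.84 ± 0.50 (adjusted p = 0.084). Its OLD libraries stood at 3.03, 2.46 and 2.25 CPM, below every CKO-OLD library. With a term for library set, Tmem200b was among 9 genes called (0.0543% of those tested).

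The promoter windows of Tmem132e and Tmem200b are shown to let their CpG content be read beside the values above, since the CxxC domain binds CpG-rich DNA. Each window holds the 250 bases before and 50 bases after a RefSeq start site in build GRCm38.p6, whereas the counts were made on mm39; CpG dinucleotides are in capitals. The Tmem132e window lies at chr11:82388650-82388949 on the plus strand and the Tmem200b window at chr4:131921521-131921820 on the plus strand.
Tmem132e: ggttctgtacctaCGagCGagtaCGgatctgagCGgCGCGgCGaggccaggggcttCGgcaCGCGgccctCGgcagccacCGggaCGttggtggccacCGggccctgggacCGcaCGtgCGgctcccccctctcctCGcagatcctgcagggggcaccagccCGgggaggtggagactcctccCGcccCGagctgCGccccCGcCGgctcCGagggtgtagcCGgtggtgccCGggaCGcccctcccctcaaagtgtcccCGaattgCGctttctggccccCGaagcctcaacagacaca
Tmem200b: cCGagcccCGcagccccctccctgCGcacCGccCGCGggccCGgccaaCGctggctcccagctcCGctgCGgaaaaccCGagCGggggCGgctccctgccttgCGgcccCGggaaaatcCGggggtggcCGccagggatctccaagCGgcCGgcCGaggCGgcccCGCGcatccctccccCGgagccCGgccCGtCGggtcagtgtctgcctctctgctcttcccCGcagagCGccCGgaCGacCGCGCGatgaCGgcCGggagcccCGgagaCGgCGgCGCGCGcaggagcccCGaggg
The Tmem132e window holds 31 CpG and the Tmem200b window 43, against a median of 7 over 32851 windows of mouse genes. A count as high occurred in 10.56% and 2.61% of those windows. Among the leading lower genes with exactly 1 window, the count ran from 5 CpG in Cyb5r1 to 47 in Rheb. The higher genes Ppfia3 and Sema4g held 25 and 30. These letters say nothing about binding in these cells.

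Tcf24, a gene of a basic helix-loop-helix transcription factor, was at 8.91, 10.8 and 9.2 CPM in CKO-OLD 1, 2 and 3, against 0.876, 0.623 and 1.1 CPM in YOUNG 1, 2 and 3. The log2 fold change was 3.47 ± 0.55 (adjusted p = 0.084), and against YOUNG 3 alone 3.13 (adjusted p = 0.0318). Epop, which encodes a protein bound to the Polycomb complex PRC2, was at 31.1, 26.1 and 21.6 CPM in CKO-OLD, against 6.16, 6.8 and 7.57 CPM in YOUNG. Its 6 values did not overlap, the log2 fold change was 1.94 ± 0.35 (adjusted p = 0.084), and the set term fit called it (adjusted p = 0.0069). Mafa, a transcription factor of pancreatic beta cells and lens, averaged under 5 CPM and so was not among the 12, with 3.78, 4.75 and 3.36 CPM in CKO-OLD, against 0.965, 0.536 and 0.927 CPM in YOUNG (log2 fold change 2.29 ± 0.42, adjusted p = 0.084).

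Caskin1, a synaptic scaffold, had 5.05, 5.92 and 4.88 CPM in CKO-OLD 1, 2 and 3, against 0.864, 0.391 and 0.772 CPM in YOUNG 1, 2 and 3. Ppfia3, a liprin of the presynaptic active zone, had 9.19, 9.51 and 7.98 CPM in CKO-OLD, against 2.02, 2.84 and 1.31 CPM in YOUNG. Sema4g, a semaphorin of axon guidance, had 11.6, 16.1 and 12.6 CPM in CKO-OLD, against 2.85, 3.06 and 4.77 CPM in YOUNG. In each of these genes the lowest CKO-OLD library exceeded the highest YOUNG library, with log2 fold changes of 2.96, 2.11 and 1.91. Nrbp2, a pseudokinase gene, had 38.3, 35.5 and 29.5 CPM in CKO-OLD, against 11.1, 7.18 and 8.71 CPM in YOUNG. Grid1, a glutamate receptor of the delta family and a member of the neuronal list, was at 7.96, 20.9 and 11.9 CPM in CKO-OLD, against 0.0635, 0.0435 and 0.116 CPM in YOUNG, a log2 fold change of 7.51 ± 1.47 (adjusted p = 0.0957).

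Of the other higher genes, Nod1, an intracellular sensor of bacterial peptidoglycan, had 26.6, 29 and 22.7 CPM in CKO-OLD 1, 2 and 3, against 13.8, 8.34 and 12.2 CPM in YOUNG 1, 2 and 3 (log2 fold change 1.19 ± 0.20). Its OLD libraries stood at 22, 25 and 20.5 CPM, near CKO-OLD. Ikzf2, the transcription factor Helios of lymphoid cells, had 13.9, 17.6 and 16.8 CPM in CKO-OLD, against 7.56, 9.31 and 7.51 CPM in YOUNG. Hsf4, a heat shock factor known from the lens, had 11.9, 9.3 and 10.3 CPM in CKO-OLD, against 4.27, 2.87 and 4.31 CPM in YOUNG, and Prob1, a gene of a proline-rich basic protein, had 6.09, 5.74 and 5.06 CPM in CKO-OLD, against 1.18, 0.696 and 1.62 CPM in YOUNG.

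**Figure D2:**
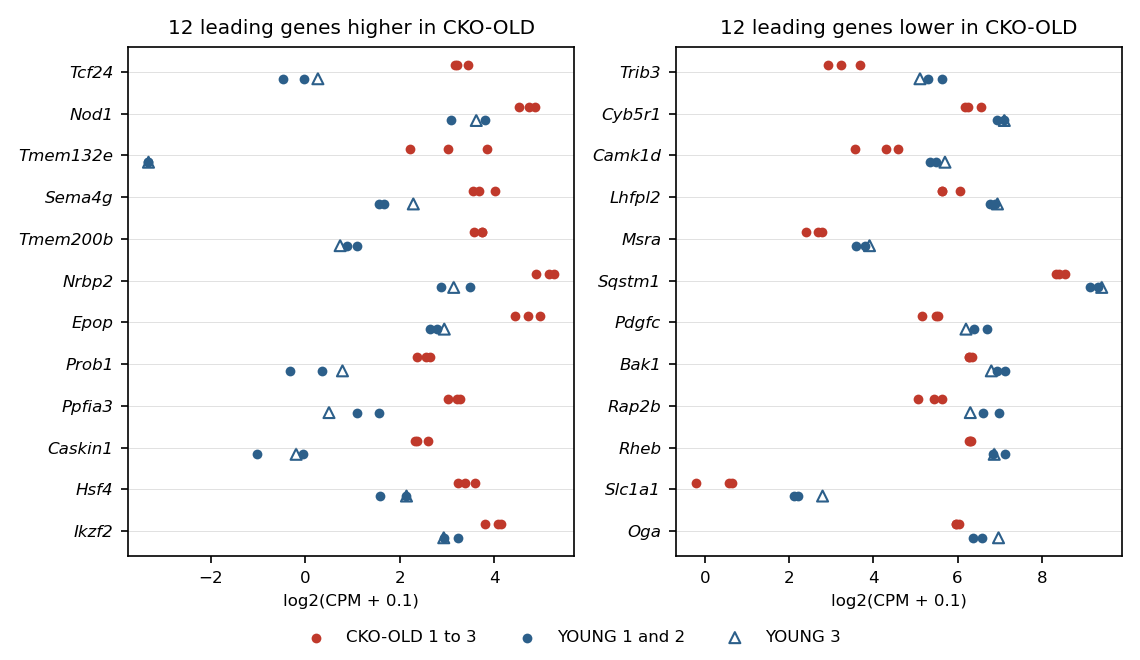
log2(CPM + 0.1) in each library for the 12 higher (left) and 12 lower (right) genes of smallest p; red points are CKO-OLD, blue points YOUNG 1 and 2 and open triangles YOUNG 3. The genes were chosen for groups that do not overlap, and YOUNG 3 lies on the YOUNG side in each.

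Among the 12 genes lower in CKO-OLD, the lowest fold changes were those of Slc1a1 and Trib3. Trib3, a pseudokinase of the amino acid stress response, stood at 12.7, 9.33 and 7.45 CPM in CKO-OLD 1, 2 and 3, against 49.7, 39 and 34.4 CPM in YOUNG 1, 2 and 3. Every CKO-OLD library was below every YOUNG library, by a log2 fold change of -2.06 ± 0.37 (adjusted p = 0.084). The difference was -1.81 against YOUNG 3 alone (adjusted p = 0.00649) and -1.54 with a set term (adjusted p = 0.0474). Slc1a1, a glutamate and cysteine transporter, had 0.764, 1.38 and 1.46 CPM in CKO-OLD, against 4.27, 4.55 and 6.84 CPM in YOUNG (log2 fold change -2.11 ± 0.47, adjusted p = 0.161).

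Sqstm1, Msra, Cyb5r1, Rheb, Oga and Bak1 were also among the 12 lower genes. Sqstm1 encodes p62, an autophagy receptor, and stood at 323, 339 and 375 CPM in CKO-OLD 1, 2 and 3, against 644, 565 and 688 CPM in YOUNG 1, 2 and 3. Msra, a methionine sulfoxide reductase, had 5.21, 6.29 and 6.81 CPM in CKO-OLD, against 13.9, 11.9 and 14.9 CPM in YOUNG. Cyb5r1, a cytochrome b5 reductase, had 94.1, 72.2 and 75.9 CPM in CKO-OLD, against 137, 123 and 138 CPM in YOUNG. The log2 fold changes of these genes were -0.87, -1.15 and -0.72, and the groups did not overlap. Rheb, the small GTPase that activates mTORC1, had 79.8, 76.9 and 78.6 CPM in CKO-OLD, against 139.8, 115 and 117 CPM in YOUNG. Oga, the enzyme that removes O-linked N-acetylglucosamine, had 65.5, 62.5 and 62.4 CPM in CKO-OLD, against 82.5, 95.5 and 126 CPM in YOUNG. Bak1, a pore-forming protein of mitochondrial apoptosis, had 76.8, 80.9 and 77.8 CPM in CKO-OLD, against 139.6, 123 and 112 CPM in YOUNG. These differences were smaller in fold but tight, with standard errors of 0.15, 0.15 and 0.14 on log2 fold changes of -0.66, -0.67 and -0.67.

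The other lower genes were Camk1d, Pdgfc, Rap2b and Lhfpl2. Camk1d, a calcium/calmodulin-dependent kinase, had 11.8, 23.8 and 19.7 CPM in CKO-OLD 1, 2 and 3, against 40.3, 44.9 and 51.9 CPM in YOUNG 1, 2 and 3. Pdgfc, a platelet-derived growth factor ligand, had 35.8, 44.7 and 46.2 CPM in CKO-OLD, against 83.5, 105 and 73.5 CPM in YOUNG. Rap2b, a Ras-related GTPase, had 33.5, 49.2 and 43.7 CPM in CKO-OLD, against 126, 97.4 and 78.9 CPM in YOUNG. YOUNG 3 had the lowest YOUNG value in Pdgfc and Rap2b and the highest in Camk1d. Lhfpl2, a tetraspan membrane protein gene, had 49.4, 67.1 and 49.2 CPM in CKO-OLD, against 119, 109.6 and 123 CPM in YOUNG, and OLD 1 and 3 matched YOUNG there, with 119, 74.2 and 123 CPM over OLD 1, 2 and 3.

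The young knockout comparison, CKO-YOUNG against CON-YOUNG, shares no library with this one. Over the 12 higher genes its log2 fold changes had a median of 1.6, with 11 of 12 positive, beside -0.0102 over all genes tested. The young comparison called Tmem132e, Nrbp2 and Caskin1 of these, and 0.127% of all genes tested. Over the 12 lower genes the median was -0.129 and 2 of 12 were positive, with none called by edgeR. In CON-OLD-iBP against CON-YOUNG, an old against young comparison without the knockout, the medians were -0.0562 over the higher and 0.259 over the lower genes, against 0.0364 over all genes. That comparison called 3 of the 12 higher genes, each lower in CON-OLD-iBP, and 3 of the 12 lower genes, each higher there. Over all genes tested it called 7.06% lower and 3.08% higher. These genes were picked for their values in CKO-OLD and YOUNG, and no test was made over them.

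Read the other way, edgeR called 21 genes higher in CKO-YOUNG than in CON-YOUNG (0.127% of genes tested). Of these, 20 had a positive log2 fold change in CKO-OLD against YOUNG, 18 had CKO-OLD above YOUNG without overlap (9.58% over all genes) and 15 had an unadjusted p under 0.05 (4.1% over all genes). Their median log2 fold change was 1.72 against YOUNG and 1.96 against YOUNG 3 alone, beside -0.046 and 0.0018 over all genes. Ina, a neuronal intermediate filament gene, was the exception, at 1.45, 1.21 and 0.715 CPM in CKO-OLD 1, 2 and 3, against 2.27, 1.35 and 0.695 CPM in YOUNG 1, 2 and 3. Some of the 21 genes, such as Tmem132e, Adgrb1 and Npr1, were near 0 in YOUNG and could hardly lie lower in CKO-OLD. The shares are therefore a description of these genes.

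**Figure D3:**
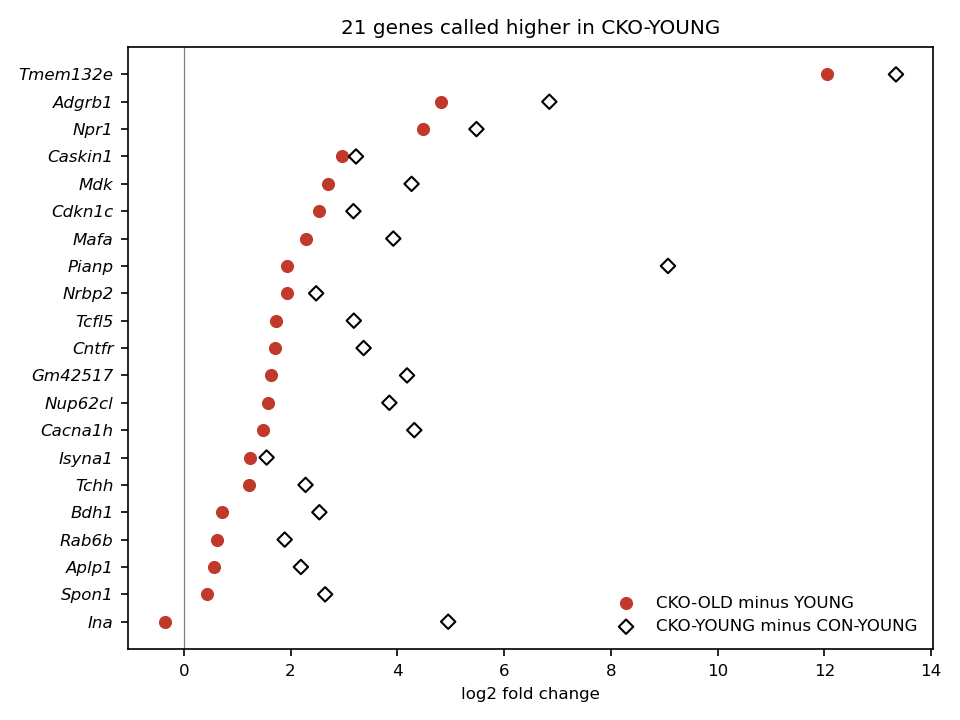
log2 fold change of the 21 genes called higher in CKO-YOUNG, in CKO-OLD minus YOUNG (filled red points) and in CKO-YOUNG minus CON-YOUNG (open diamonds), ordered by the first; the young values are those that chose the genes. All but Ina lie right of 0; fitted folds of Tmem132e, which is at 0 in YOUNG and CON-YOUNG, depend on the prior count and are no bound.

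In the young knockout, Tmem132e had 21.4, 22.1 and 22.4 CPM in the CKO-YOUNG libraries 1, 2 and 3, against 0, 0 and 0 CPM in the CON-YOUNG ones, and the CKO-YOUNG values lay above the CKO-OLD values given earlier. Adgrb1, an adhesion receptor of brain, had 24.5, 21.3 and 11.9 CPM in the CKO-YOUNG libraries, against 0.15, 0.129 and 0.215 CPM in the CON-YOUNG ones. In the comparison of CKO-OLD with YOUNG, Adgrb1 stood at 2.73, 3.5 and 2.79 CPM in CKO-OLD, against 0.127, 0 and 0.193 CPM in YOUNG (log2 fold change 4.82 ± 1.09, adjusted p = 0.163). Mdk, the heparin-binding growth factor midkine, was at 21.8, 19.6 and 10.8 CPM in CKO-OLD, against 4.5, 1.07 and 2.41 CPM in YOUNG. Npr1, the receptor of atrial natriuretic peptide, was at 3.46, 4.52 and 6.84 CPM in CKO-OLD, against 0.343, 0.116 and 0.193 CPM in YOUNG. Cntfr, the receptor subunit for ciliary neurotrophic factor, was at 8.14, 10.3 and 14.5 CPM in CKO-OLD, against 3.75, 0.971 and 5.33 CPM in YOUNG. None of these genes overlapped between CKO-OLD and YOUNG. The transcription factor gene Tcfl5 had 16.6, 11.9 and 11.9 CPM in CKO-OLD, against 4.4, 3.13 and 4.69 CPM in YOUNG, and in the young comparison 46.8, 50.7 and 51.2 CPM in the CKO-YOUNG libraries, against 7.15, 7.35 and 1.85 CPM in the CON-YOUNG ones. The 21 calls that chose these genes were 3 without CON-YOUNG 1, 2 without CON-YOUNG 2, and 7, 10 and 10 without CKO-YOUNG 1, 2 and 3.

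The genes called in CON-OLD-iBP against CON-YOUNG gave other values. Of the 511 called higher there (3.08%), 119 had a positive log2 fold change in CKO-OLD against YOUNG, with a median of -0.319. Of the 1169 called lower (7.06%), 617 were positive and the median was 0.0202, while 1011 were positive against YOUNG 3 alone and the median was 0.428. The count of 1680 calls was 137 and 220 without CON-OLD-iBP 1 and 3, and 35, 78 and 4567 without CON-YOUNG 1, 2 and 3. All CON-OLD-iBP libraries belong to library set 3, as does CON-YOUNG 3, while CON-YOUNG 1 and 2 had Malat1 shares of 0.0413% and 0.0334%. The agent, the old age and, in part, the library set differ together there and cannot be told apart.

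The Polycomb machinery was measured next. Among 10 tested PRC1.1 subunits, 6 had a positive fold change and 2 had groups that did not overlap, both higher (20% of the list, 9.58% of all genes). Bcor, the corepressor that joins Kdm2b in PRC1.1, stood at 69.2, 119.8 and 97.8 CPM in CKO-OLD 1, 2 and 3, against 28.4, 33.6 and 33.1 CPM in YOUNG 1, 2 and 3 (log2 fold change 1.59 ± 0.42, adjusted p = 0.211). Its paralog Bcorl1 had 18.7, 36.7 and 29.3 CPM in CKO-OLD, against 12.4, 14.1 and 13.7 CPM in YOUNG (1.08 ± 0.35, adjusted p = 0.289). OLD libraries were at 32.7, 37.2 and 30.6 CPM for Bcor, near YOUNG. The catalytic subunit Rnf2 had 40.1, 40.1 and 42.4 CPM in CKO-OLD, against 38.4, 43.4 and 32.7 CPM in YOUNG and Pcgf1, the ring finger partner specific to PRC1.1, had 11.7, 8.58 and 8.9 CPM in CKO-OLD, against 7.72, 6.7 and 10.2 CPM in YOUNG, with overlap in both. The list median was 0.059.

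Of 22 other PRC1 subunits, 17 were positive and 5 did not overlap, all higher in CKO-OLD (22.7% of the list, 9.58% of all genes), with a median of 0.11. Pcgf2, which defines a canonical PRC1, had 39.3, 38.3 and 37.8 CPM in CKO-OLD 1, 2 and 3, against 22.9, 21.8 and 21.5 CPM in YOUNG 1, 2 and 3. This was a tight difference of 0.80 ± 0.18 on the log2 scale (adjusted p = 0.161), and Pcgf2 was called against YOUNG 3 alone (adjusted p = 0.0265). The OLD values were 24.2, 39.1 and 24.4 CPM, with OLD 2, the OLD library of set 3, at the CKO-OLD level. Phc1, a polyhomeotic subunit, had 22.7, 28.3 and 29 CPM in CKO-OLD, against 18.1, 18.8 and 14.6 CPM in YOUNG. Of 12 PRC2 subunits, 4 were positive and 8 negative, and Epop alone did not overlap (8.33% of the list, 9.58% of all genes higher). The list median was -0.044, and 0.26 with 11 positive against YOUNG 3 alone. By smallest p, Epop was followed by Phf1, a Tudor-domain accessory protein, at 48.6, 27.1 and 35.9 CPM in CKO-OLD, against 21.8, 18 and 27.2 CPM in YOUNG, with overlap. The methyltransferase gene Ezh2 had 21.4, 21.3 and 18.9 CPM in CKO-OLD, against 33.5, 32.4 and 12.8 CPM in YOUNG, with YOUNG 1 and 2 above and YOUNG 3 below CKO-OLD.

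A list of developmental transcription factors that Polycomb complexes bind held 78 genes, of which 55 passed the filter on low counts. Of these, 49 had a positive fold change, 20 did not overlap, all higher (36.36% of the list, 9.58% over all genes), and the median was 0.86, against -0.046 over all genes. Genes near 0 in YOUNG could pass the filter through a group where they were high, so the count is a description of the genes kept. The same limit holds for the other lists below that lost genes to this filter. The median was 0.37 with 33 positive against YOUNG 3 alone, 1.73 with 53 positive against YOUNG 1 and 2, and 0.45 with 37 positive in CKO-YOUNG against CON-YOUNG.

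Lmx1b, a LIM homeodomain factor of dorsal limb patterning, stood at 10.2, 15.1 and 10.4 CPM in CKO-OLD 1, 2 and 3, against 1.69, 1.52 and 2.68 CPM in YOUNG 1, 2 and 3 (log2 fold change 2.60 ± 0.53, adjusted p = 0.12). Lhx2, a LIM homeodomain factor of forebrain and limb, had 4.99, 6.34 and 5.04 CPM in CKO-OLD, against 0.597, 0.174 and 0.193 CPM in YOUNG. Foxl2, a forkhead factor of the ovary, had 2.96, 4.1 and 2.09 CPM in CKO-OLD, against 0.0381, 0 and 0.116 CPM in YOUNG. None of these 3 genes overlapped between the groups, and their log2 fold changes in the young knockout comparison were 2.69, 3.40 and 5.36. In OLD, Lmx1b was at 2.38, 2.26 and 2.33 CPM, below every CKO-OLD library. Pax9, a factor of the axial skeleton, had 6.21, 10.8 and 6.54 CPM in CKO-OLD, against 3.34, 1.61 and 0.599 CPM in YOUNG.

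Hand2, a limb and heart factor, had 8.45, 3.73 and 3.34 CPM in CKO-OLD 1, 2 and 3, against 0.673, 0.391 and 0 CPM in YOUNG 1, 2 and 3. Sox9, the master factor of chondrocytes, had 44.5, 36 and 118 CPM in CKO-OLD, against 12.1, 15 and 139 CPM in YOUNG, with CKO-OLD 3 and YOUNG 3 high together. Pax1, a factor of the vertebral column, had 1.79, 0.683 and 1.55 CPM in CKO-OLD, against 0.508, 0.739 and 17.1 CPM in YOUNG, and Foxd1, a forkhead factor of stromal cells, had 7.42, 3.59 and 16.2 CPM in CKO-OLD, against 0.915, 0.739 and 24.6 CPM in YOUNG. In Pax1 and Foxd1 the highest value was that of YOUNG 3. The summed chondrocyte markers followed the same libraries, at 0.153%, 0.0677% and 1.18% of counts in CKO-OLD and 0.0623%, 0.0592% and 1.6% in YOUNG; their part in these members was not tested.

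Hox genes set position along the body axis and are classic Polycomb targets. Of 35 tested, 31 were positive, 12 did not overlap, all higher (34.3% of the list, 9.58% of all genes), and the median was 0.85, 0.80 against YOUNG 3 alone and 0.83 against YOUNG 1 and 2. Hoxc5 stood at 6.11, 9.32 and 8.7 CPM in CKO-OLD 1, 2 and 3, against 2.25, 3.71 and 3.88 CPM in YOUNG 1, 2 and 3 (log2 fold change 1.29 ± 0.31, adjusted p = 0.193). Hoxc10, a gene of the posterior hindlimb, had 73.7, 61.9 and 86.8 CPM in CKO-OLD, against 32.8, 40.8 and 44.5 CPM in YOUNG. Hoxc9 had 20.2, 13.5 and 20.2 CPM in CKO-OLD, against 6.19, 6.51 and 13.5 CPM in YOUNG, where CKO-OLD 2 and YOUNG 3 met at the same level. Members of the Hoxc cluster lie next to each other, and with the strand of counting not given in the sources used here, neighbours and antisense transcripts may share reads. In CKO-YOUNG against CON-YOUNG the Hox list had a median of 0.19 with 21 of 35 positive.

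Imprinted genes are expressed from 1 parental allele. Of 25 tested, 22 were positive and 5 did not overlap higher (20% of the list, 9.58% of all genes) and 1 lower (4% of the list, 9.73% of all genes), with a median of 0.31, but the median was -0.088 with 12 positive against YOUNG 3 alone. Cdkn1c encodes the cyclin-dependent kinase inhibitor p57 and stood at 9.67, 7.43 and 7.59 CPM in CKO-OLD 1, 2 and 3, against 1.46, 0.971 and 1.85 CPM in YOUNG 1, 2 and 3. Its log2 fold change was 2.53 ± 0.55 (adjusted p = 0.15), and it was one of the 21 genes called in CKO-YOUNG. Igf2, the fetal insulin-like growth factor, was at 50.7, 115 and 123 CPM in CKO-OLD, against 6.44, 2.15 and 1.82 CPM in YOUNG, a log2 fold change of 4.79 ± 1.54 (adjusted p = 0.283). H19, the noncoding gene beside Igf2, overlapped, at 1.71, 3.91 and 8.77 CPM in CKO-OLD, against 4.23, 2.28 and 5.47 CPM in YOUNG.

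Of 33 neuronal genes listed, 26 passed the filter on low counts. Of these 26, 16 were positive, 8 did not overlap higher (30.8% of the list, 9.58% of all genes) and 3 did not overlap lower (11.5% of the list, 9.73% of all genes). The counts describe the genes kept, since genes near 0 in YOUNG could pass through a group where they were high. The list was also chosen with earlier results of these data known, so its shares are no separate support. The median was 0.19, 0.69 against YOUNG 3 alone and 0.72 against YOUNG 1 and 2. Beside Tmem132e, Grid1 and Adgrb1, Cacna1h, a T-type calcium channel, had 7.4, 14.4 and 10.3 CPM in CKO-OLD 1, 2 and 3, against 3.95, 5.6 and 1.93 CPM in YOUNG 1, 2 and 3. Cntn1, a contactin of axons, had 0.221, 2.68 and 16.1 CPM in CKO-OLD, against 0.432, 0.275 and 0.406 CPM in YOUNG, where CKO-OLD 3 was high and CKO-OLD 1 lay within YOUNG. The members named in this paragraph all had higher means in CKO-OLD, while 10 of the 26 were negative.

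Wnt ligands, receptors and targets bear on the question in the title of the series. Of 17 ligands and R-spondins tested, 10 were positive and 5 did not overlap, all higher (29.4% of the list, 9.58% of all genes). The median was 0.16, 0.74 against YOUNG 3 alone. Wnt6, a ligand of the beta-catenin pathway, was at 1.41, 3.47 and 2.7 CPM in CKO-OLD 1, 2 and 3, against 0.203, 0.188 and 0.0579 CPM in YOUNG 1, 2 and 3 (log2 fold change 4.04 ± 1.25, adjusted p = 0.267). Wnt5b, a ligand of noncanonical signalling, had 19.5, 19.1 and 14.1 CPM in CKO-OLD, against 9.54, 9.47 and 6.88 CPM in YOUNG. Wnt10b, a ligand that promotes bone formation in mice, had 28.2, 30.6 and 15.2 CPM in CKO-OLD, against 17, 15.5 and 17 CPM in YOUNG, so CKO-OLD 1 and 2 were above YOUNG and CKO-OLD 3 was not. Wnt5a was at 46.1, 70.9 and 64.2 CPM in CKO-OLD, against 56.3, 61.3 and 63.9 CPM in YOUNG, with overlap.

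Among 20 receptors and co-receptors, 14 were positive and 3 did not overlap, all higher (15% of the list, 9.58% of all genes). The median was 0.39, 0.11 against YOUNG 3 alone and 0.041 with the set term. Fzd2, a Frizzled receptor, stood at 60.9, 70.7 and 62.3 CPM in CKO-OLD 1, 2 and 3, against 28.4, 29.7 and 29.4 CPM in YOUNG 1, 2 and 3. Ryk, a Wnt-binding receptor tyrosine kinase-like protein, had 177, 177 and 185 CPM in CKO-OLD, against 127, 127 and 129.9 CPM in YOUNG. Both differences were tight, at 1.15 ± 0.30 and 0.49 ± 0.13 on the log2 scale, with adjusted p of 0.211 and 0.216. Lrp5, a co-receptor known for its effect on bone mass, had 99, 135 and 133 CPM in CKO-OLD, against 72.4, 87.1 and 139.9 CPM in YOUNG and Lrp6 had 110.5, 139 and 169 CPM in CKO-OLD, against 75, 105 and 138 CPM in YOUNG, with overlap in both.

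Secreted antagonists were represented by 9 tested genes, 7 of them positive, with a median of 0.68. Of the 9, 2 did not overlap, both higher (22.2% of the list, 9.58% of all genes). Frzb, a secreted Frizzled-related protein, stood at 15, 24.5 and 28.6 CPM in CKO-OLD 1, 2 and 3, against 4.9, 8.55 and 9.08 CPM in YOUNG 1, 2 and 3 (log2 fold change 1.60 ± 0.61, adjusted p = 0.358). Sfrp4 had 48, 70.1 and 46.7 CPM in CKO-OLD, against 31.6, 40.2 and 34.4 CPM in YOUNG without overlap, and Draxin, an axon guidance protein that binds Wnt co-receptors, had 10.1, 23.8 and 18.4 CPM in CKO-OLD, against 3.28, 4.29 and 13.4 CPM in YOUNG with overlap.

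Targets of beta-catenin were spread on both sides of 0. Of 18 tested, 7 were positive, 1 did not overlap higher (5.56% of the list, 9.58% of all genes) and 2 did not overlap lower (11.1% of the list, 9.73% of all genes), with a median of -0.35, which was 0.043 against YOUNG 1 and 2. Axin2, a feedback inhibitor used as a readout of the pathway, stood at 5.05, 6.39 and 8.09 CPM in CKO-OLD 1, 2 and 3, against 2.81, 2.99 and 9.5 CPM in YOUNG 1, 2 and 3 (log2 fold change 0.35 ± 0.62, adjusted p = 0.909). YOUNG 3 was the highest library in Axin2, and against it alone the fold was -0.54. Lef1, a nuclear partner of beta-catenin, had 1.09, 0.823 and 2.02 CPM in CKO-OLD, against 1.18, 1.1 and 5.21 CPM in YOUNG (-0.93 ± 0.92, adjusted p = 0.795). Without YOUNG 3 the Lef1 fold change was 0.187. Nkd2, a Dishevelled-binding inhibitor, had 60.3, 74.9 and 71.1 CPM in CKO-OLD, against 36.1, 45 and 17.9 CPM in YOUNG without overlap, while Ccn4, a matricellular target gene, had 24.6, 43.4 and 28.2 CPM in CKO-OLD, against 155, 165 and 62.6 CPM in YOUNG without overlap in the lower direction (-1.99 ± 0.58, adjusted p = 0.248). Ccnd1, which encodes cyclin D1, had 979, 732 and 900.1 CPM in CKO-OLD, against 1364, 1369 and 1000 CPM in YOUNG.

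Osteoblast transcription factors had 12 of 15 positive, 5 that did not overlap, all higher (33.3% of the list, 9.58% of all genes), and a median of 0.27 (0.62 against YOUNG 3 alone). Prrx1, a homeobox factor of limb mesenchyme, was at 361, 483 and 446 CPM in CKO-OLD 1, 2 and 3, against 236, 305 and 265 CPM in YOUNG 1, 2 and 3 (log2 fold change 0.68 ± 0.21, adjusted p = 0.267). Dlx5, a homeobox activator of osteoblast genes, had 27.1, 30.9 and 34.6 CPM in CKO-OLD, against 18.2, 21.1 and 11 CPM in YOUNG. Runx2, which commits cells to the osteoblast lineage, overlapped, at 53.6, 84.6 and 90.8 CPM in CKO-OLD, against 57.9, 77 and 46.2 CPM in YOUNG.

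Matrix and mineralisation genes gave a median of -0.14 over 23 tested (-0.33 against YOUNG 3 alone), with 9 positive and 6 that did not overlap, all lower (26.1% of the list, 9.73% of all genes). Ibsp, the bone sialoprotein of mineralising matrix, had 123, 48.7 and 38.1 CPM in CKO-OLD 1, 2 and 3, against 1835, 1530.2 and 535 CPM in YOUNG 1, 2 and 3. This was the lowest fold of the named bone genes, -4.21 ± 1.34 on the log2 scale (adjusted p = 0.28). OLD had 357, 4.28 and 363 CPM in OLD 1, 2 and 3, so OLD 2 was lower than CKO-OLD. Fam20c, the kinase that phosphorylates secreted matrix proteins, had 18.9, 31.1 and 35.3 CPM in CKO-OLD, against 58, 52.8 and 180.3 CPM in YOUNG (-1.77 ± 0.53, adjusted p = 0.258) and was called against YOUNG 3 alone (adjusted p = 0.0105). Col1a2 had 8496, 9713 and 5651 CPM in CKO-OLD, against 10802, 12127 and 10876 CPM in YOUNG and Phospho1, a phosphatase of matrix vesicles, had 68, 44.9 and 78.1 CPM in CKO-OLD, against 110.3, 89.9 and 94.7 CPM in YOUNG, both lower without overlap. Bglap, osteocalcin itself, had 83.6, 43.2 and 49.5 CPM in CKO-OLD, against 64.2, 45.4 and 73.7 CPM in YOUNG (-0.056 ± 1.15, adjusted p = 0.996); its near-identical paralogs may share reads.

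Genes by which osteoblasts and osteocytes act on osteoclasts had 3 of 7 positive and 1 that did not overlap, higher (14.3% of the list, 9.58% of all genes). Tnfrsf11b, the decoy receptor osteoprotegerin, had 24.3, 15.8 and 317 CPM in CKO-OLD 1, 2 and 3, against 30, 40.5 and 592 CPM in YOUNG 1, 2 and 3, with CKO-OLD 3 and YOUNG 3 above the rest. Tnfsf11, the osteoclast-inducing ligand RANKL, had 2.77, 8.23 and 3.23 CPM in CKO-OLD, against 1.56, 1.46 and 9.98 CPM in YOUNG. Ephb4, the receptor of osteoclast ephrin-B2, had 31.6, 48.3 and 39.6 CPM in CKO-OLD, against 24.1, 23.4 and 18.5 CPM in YOUNG without overlap (log2 fold change 0.85 ± 0.50, adjusted p = 0.571). Among 9 osteocyte genes, 6 were positive and none stood free of overlap. Fgf23, the phosphate hormone of osteocytes, was near the detection limit, at 0.442, 0.123 and 0.375 CPM in CKO-OLD, against 0.152, 0 and 0.154 CPM in YOUNG.

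Of 41 BMP and TGF-beta genes tested, 17 were positive, 7 did not overlap higher (17.1% of the list, 9.58% of all genes) and 2 lower (4.88% of the list, 9.73% of all genes), with a median of -0.14, which was 0.36 against YOUNG 1 and 2. Chrd, the secreted BMP antagonist chordin, stood at 14.8, 18 and 10.6 CPM in CKO-OLD 1, 2 and 3, against 3.56, 4.76 and 4.21 CPM in YOUNG 1, 2 and 3 (log2 fold change 1.79 ± 0.53, adjusted p = 0.252), and Nog, the antagonist noggin, had 15.2, 13.7 and 34.1 CPM in CKO-OLD, against 6.67, 6.26 and 6.82 CPM in YOUNG (1.67 ± 0.60, adjusted p = 0.315). Tgfbr3, the co-receptor betaglycan, had 125, 133 and 126 CPM in CKO-OLD, against 29.3, 40.2 and 70 CPM in YOUNG (1.46 ± 0.31, adjusted p = 0.149). Its OLD libraries stood at 96.1, 159 and 92.7 CPM, above every YOUNG library too. The ligand Tgfb1 was lower without overlap, at 72.6, 114 and 95.7 CPM in CKO-OLD, against 185, 151 and 152 CPM in YOUNG. Bmp2, an osteogenic ligand, had 41.2, 53.1 and 73.3 CPM in CKO-OLD, against 7.77, 9.23 and 251 CPM in YOUNG, where YOUNG 3 alone was high.

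FGF and Hedgehog genes had 21 of 29 positive and a median of 0.47, which was 0.29 against YOUNG 3 alone and 0.19 with the set term. Of these, 9 did not overlap higher (31% of the list, 9.58% of all genes) and 2 lower (6.9% of the list, 9.73% of all genes). Gli1, a transcription factor and target of Hedgehog signalling, stood at 3.46, 4.2 and 3.54 CPM in CKO-OLD 1, 2 and 3, against 0.229, 0.594 and 0.193 CPM in YOUNG 1, 2 and 3 (log2 fold change 3.45 ± 0.90, adjusted p = 0.211). Hhip, a Hedgehog-binding inhibitor and target, had 2.13, 4.59 and 3.3 CPM in CKO-OLD, against 0.47, 0.333 and 0.406 CPM in YOUNG. Ptch1, the Hedgehog receptor and a target too, overlapped, at 22.2, 28.1 and 32.3 CPM in CKO-OLD, against 23.6, 35.5 and 26.5 CPM in YOUNG. Gas1, a co-receptor, had 224, 305 and 201 CPM in CKO-OLD, against 92.8, 50.1 and 121 CPM in YOUNG. Fgf10, a mesenchymal ligand of limb bud and lung, had 74, 86.6 and 74.8 CPM in CKO-OLD, against 8.88, 11.2 and 29.8 CPM in YOUNG, and OLD 2 stood above every CKO-OLD library, with 11.2, 125 and 11.4 CPM over OLD 1, 2 and 3. Etv5, a target of FGF signalling, was lower without overlap, at 26.1, 40 and 34.7 CPM in CKO-OLD, against 87.6, 73.3 and 45.7 CPM in YOUNG (-1.04 ± 0.26, adjusted p = 0.195). In the IGF axis, Igfbp2 had 1.53, 0.823 and 1.32 CPM in CKO-OLD, against 206, 2.45 and 0.985 CPM in YOUNG, so 1 YOUNG library set its fold, and Igf1 had 59.9, 78.8 and 36.5 CPM in CKO-OLD, against 378, 203 and 82.9 CPM in YOUNG without overlap. Of 15 IGF genes tested, 2 did not overlap higher (13.3% of the list, 9.58% of all genes) and 2 lower (13.3% of the list, 9.73% of all genes).

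Genes of the amino acid stress response were lower in CKO-OLD in 16 of 18. The transcription factor ATF4 induces them when amino acids are short or unfolded proteins accumulate. Of 18 tested, 2 were positive, 8 did not overlap, all lower (9.73% over all genes), and 7 had an unadjusted p under 0.05 and were lower (6.85% over all genes). The median log2 fold change was -0.80, -0.67 against YOUNG 3 alone, where 5 were called lower (1.19% over all genes), and -0.55 against YOUNG 1 and 2. With a set term the median was -0.36. In CKO-YOUNG against CON-YOUNG the median was -0.14. OLD against YOUNG, which shares the YOUNG libraries, had a median of -0.46 with 0 of 18 positive, and CKO-OLD against OLD, which shares the CKO-OLD libraries, had -0.15 with 8 of 18 positive.

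The promoter windows of Trib3 and Slc7a11 show the letters TGATGNAA, a composite C/EBP-ATF type motif searched on both strands and put in capitals. The Trib3 window is chr2:152344011-152344310 and the Slc7a11 window chr3:50443564-50443863, both on the minus strand of GRCm38.p6, read 5′ to 3′ along the gene.
Trib3: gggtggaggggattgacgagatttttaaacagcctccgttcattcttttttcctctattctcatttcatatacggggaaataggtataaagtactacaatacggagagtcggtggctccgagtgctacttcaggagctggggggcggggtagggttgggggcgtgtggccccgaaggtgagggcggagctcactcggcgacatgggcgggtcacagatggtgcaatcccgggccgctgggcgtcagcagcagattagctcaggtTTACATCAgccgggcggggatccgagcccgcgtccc
Slc7a11: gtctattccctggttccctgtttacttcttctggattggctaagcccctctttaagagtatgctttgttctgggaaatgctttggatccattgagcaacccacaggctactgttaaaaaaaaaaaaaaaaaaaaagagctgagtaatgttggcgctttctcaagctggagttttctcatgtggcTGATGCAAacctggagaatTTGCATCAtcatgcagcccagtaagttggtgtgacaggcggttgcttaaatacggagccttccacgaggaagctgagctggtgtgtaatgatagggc
The motif begins 14 bases after the start in Trib3, and 66 and 47 bases before it in Slc7a11. Of 16 list genes with a window, 6 held a match in any window, against 2.9% of 12918 tested genes counted in the same way. Counted by window, 3.97% of all 32851 windows held one. The list was made of genes that ATF4 induces, so this share is no result about these cells. A match is a description and not a site.

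Slc3a2, the heavy chain shared by several amino acid transporters, stood at 133, 142 and 140.3 CPM in CKO-OLD 1, 2 and 3, against 337, 257 and 260.1 CPM in YOUNG 1, 2 and 3 (log2 fold change -1.04 ± 0.30, adjusted p = 0.243). Its partner Slc7a5 had 41.4, 48.8 and 50.4 CPM in CKO-OLD, against 88.2, 108 and 132 CPM in YOUNG. The cystine transporter Slc7a11 had 3.42, 7.27 and 7.32 CPM in CKO-OLD, against 6.75, 11.1 and 22.8 CPM in YOUNG, with overlap. Slc3a2 and Slc7a5 were lower without overlap. Asns, asparagine synthetase, had 74.9, 69.1 and 77.7 CPM in CKO-OLD, against 141, 140.4 and 123 CPM in YOUNG. Mthfd2, a mitochondrial folate enzyme, had 47.1, 51.6 and 51.2 CPM in CKO-OLD, against 91.2, 99.5 and 69.8 CPM in YOUNG. Chac1, which degrades glutathione, had 14.5, 14.7 and 20.6 CPM in CKO-OLD, against 28.2, 26.5 and 40.1 CPM in YOUNG. In Asns, Mthfd2 and Chac1 every CKO-OLD library was below every YOUNG library, with log2 fold changes of -0.87, -0.80 and -0.93.

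Ddit3, the stress factor CHOP, had 25.6, 12.3 and 21 CPM in CKO-OLD 1, 2 and 3, against 60.4, 47.1 and 46.3 CPM in YOUNG 1, 2 and 3, and Sesn2, a leucine sensor of the mTORC1 pathway, had 28.7, 41.3 and 36.3 CPM in CKO-OLD, against 47.4, 48.6 and 50.7 CPM in YOUNG. Both were lower without overlap. Atf4 itself had 263, 173 and 221 CPM in CKO-OLD, against 246, 211 and 331 CPM in YOUNG, with overlap. The serine synthesis genes Phgdh and Psat1 were the positive members, at 220.4, 142 and 192 CPM in CKO-OLD, against 141, 168 and 191 CPM in YOUNG for Phgdh, and 158, 127 and 106 CPM in CKO-OLD, against 113, 142 and 92.2 CPM in YOUNG for Psat1. In OLD, 10 of the 18 genes had a mean between those of CKO-OLD and YOUNG.

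**Figure D4:**
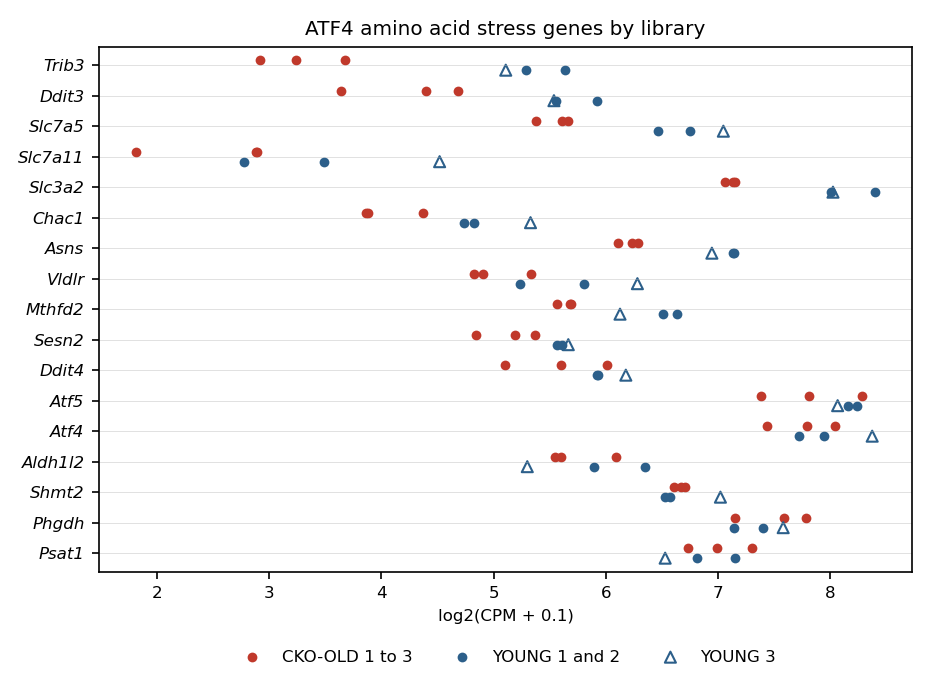
log2(CPM + 0.1) in each library for 17 genes of the amino acid stress list (Fgf21, near 0 throughout, is left out); red points are CKO-OLD, blue points YOUNG 1 and 2 and open triangles YOUNG 3. From Trib3 down, genes are ordered by fold change, and the CKO-OLD points of Trib3, Ddit3, Slc7a5, Slc3a2, Chac1, Asns, Mthfd2 and Sesn2 lie left of every YOUNG point.

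Heat shock proteins gave a median of 0.063 over 15 genes (-0.10 against YOUNG 3 alone), with 3 that did not overlap, all higher (20% of the list, 9.58% of all genes). Hspa1b, an inducible HSP70 gene, stood at 127, 252 and 193 CPM in CKO-OLD 1, 2 and 3, against 33.6, 51.1 and 39.3 CPM in YOUNG 1, 2 and 3, and its near-identical neighbour Hspa1a had 81.7, 129.7 and 125 CPM in CKO-OLD, against 35.7, 40 and 34.3 CPM in YOUNG. Reads may be shared between these copies. Their log2 fold changes were 2.21 ± 0.53 (adjusted p = 0.195) and 1.61 ± 0.42 (adjusted p = 0.209). The nucleotide exchange factor Hsph1 had 287, 182 and 222 CPM in CKO-OLD, against 69.7, 71.3 and 146 CPM in YOUNG, while the constitutive Hspa8 overlapped, at 2241, 1710.5 and 1905 CPM in CKO-OLD, against 2242, 2069 and 1756 CPM in YOUNG.

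Cell cycle genes depended on which YOUNG library was used. Over 40 genes the median was -0.30 with 8 positive, -0.61 with 2 positive against YOUNG 1 and 2, and 0.77 with 38 positive against YOUNG 3 alone. Mki67, a marker of cycling cells, shows the pattern, at 79.3, 130.4 and 99.7 CPM in CKO-OLD 1, 2 and 3, against 185, 195 and 58.6 CPM in YOUNG 1, 2 and 3. Pcna, the sliding clamp of replication, had 93.7, 81.6 and 52.6 CPM in CKO-OLD, against 212, 146 and 103 CPM in YOUNG, lower without overlap (log2 fold change -1.02 ± 0.43, adjusted p = 0.406). Pcna was the only gene of the 40 without overlap (2.5% of the list, 9.73% of all genes lower). Rrm2, a ribonucleotide reductase subunit, had 319, 189 and 369.9 CPM in CKO-OLD, against 93.6, 103 and 261 CPM in YOUNG, with overlap.

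Of the senescence and p53 genes, 6 of 21 were positive, with a median of -0.34 (0.17 against YOUNG 3 alone). Of the 21, 2 did not overlap higher (9.52% of the list, 9.58% of all genes) and 4 lower (19% of the list, 9.73% of all genes). The member of smallest p was Cdkn1c, described with the imprinted genes, which was higher without overlap. Cdkn2a, which encodes the senescence inhibitor p16 and ARF, stood at 144, 77.5 and 97.9 CPM in CKO-OLD 1, 2 and 3, against 205, 172 and 93.5 CPM in YOUNG 1, 2 and 3 (log2 fold change -0.56 ± 1.06, adjusted p = 0.921). Cdkn1a, the p21 inhibitor, was lower without overlap, at 307, 284 and 355 CPM in CKO-OLD, against 597, 483 and 558 CPM in YOUNG (-0.79 ± 0.28, adjusted p = 0.315).

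Among inflammatory genes, Tnf and Tnfaip3 were high in YOUNG 1 and 2 alone. Tnf had 7.58, 15.8 and 6.52 CPM in CKO-OLD 1, 2 and 3, against 210.3, 149.8 and 10.4 CPM in YOUNG 1, 2 and 3, and Tnfaip3, its feedback inhibitor, had 18.6, 24.4 and 16.5 CPM in CKO-OLD, against 149, 158 and 19.2 CPM in YOUNG. Against YOUNG 3 alone the log2 fold changes of Tnf and Tnfaip3 were -0.063 and 0.045. The list of 28 had 10 positive and a median of -0.43. The median was -0.018 with 14 positive against YOUNG 3 alone, and -0.070 against YOUNG 1 and 2. The cytokine gene Il6 was higher without overlap, at 8.16, 8.13 and 7.5 CPM in CKO-OLD, against 6.53, 3.57 and 5.54 CPM in YOUNG. Il6 was the only such gene of the 28 (3.57% of the list, 9.58% of all genes), and 3 did not overlap lower (10.7% of the list, 9.73% of all genes). Interferon response genes had 13 of 26 positive and a median of 0.0039, which was 1.13 against YOUNG 3 alone and -0.31 against YOUNG 1 and 2. Mx1, an antiviral GTPase, was at 0.101, 0.508 and 0 CPM in CKO-OLD, against 2.45, 2.58 and 0.444 CPM in YOUNG. Among immediate early genes, Atf3 had 72.7, 57.8 and 46.7 CPM in CKO-OLD, against 318, 212 and 29 CPM in YOUNG, with YOUNG 3 below CKO-OLD. Klf6 had 183, 238 and 231 CPM in CKO-OLD, against 381, 399 and 189 CPM in YOUNG, with YOUNG 3 between CKO-OLD 1 and CKO-OLD 3, and Fos and Egr1 overlapped as well.

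Matrix enzymes and collagens showed a few wide differences. Timp3, an inhibitor of matrix metalloproteases, stood at 876, 1188 and 1387 CPM in CKO-OLD 1, 2 and 3, against 3656, 5694 and 3682 CPM in YOUNG 1, 2 and 3 (log2 fold change -1.92 ± 0.56, adjusted p = 0.245). OLD had 1082, 1489 and 1066 CPM, near CKO-OLD. Mmp23 was higher without overlap, at 272, 219.6 and 164 CPM in CKO-OLD, against 106, 99.5 and 80.2 CPM in YOUNG (1.20 ± 0.27, adjusted p = 0.17), and Mmp13, the collagenase of bone, was lower without overlap, at 443, 1001 and 644 CPM in CKO-OLD, against 1124, 1102 and 1546 CPM in YOUNG. Of 20 matrix enzyme and inhibitor genes tested, 2 did not overlap higher (10% of the list, 9.58% of all genes) and 2 lower (10% of the list, 9.73% of all genes). Col5a1 had 851, 1684 and 997 CPM in CKO-OLD, against 1879, 2333 and 2098 CPM in YOUNG and Col5a2 had 1911, 1977 and 1930.1 CPM in CKO-OLD, against 2361, 2869 and 2811 CPM in YOUNG, both lower without overlap. Collagens as a list had a median of -0.16, -0.45 against YOUNG 3 alone and 0.51 against YOUNG 1 and 2. Of 23 collagens tested, 2 did not overlap higher (8.7% of the list, 9.58% of all genes) and 4 lower (17.4% of the list, 9.73% of all genes).

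Medians of metabolic and ribosomal lists were -0.034 for 27 glycolysis and hypoxia genes, -0.081 for 32 nuclear genes of oxidative phosphorylation and -0.11 for 45 cytosolic ribosomal protein genes. Against YOUNG 3 alone these medians were -0.21, 0.084 and 0.0076. Ndrg1, a gene induced by hypoxia, stood at 12.8, 15 and 17.6 CPM in CKO-OLD 1, 2 and 3, against 46.5, 39.5 and 176 CPM in YOUNG 1, 2 and 3 (log2 fold change -2.52 ± 0.81, adjusted p = 0.288; -3.53 against YOUNG 3 alone, adjusted p = 0.00222). Rps2 had 767, 891 and 595 CPM in CKO-OLD, against 1378, 1253 and 1120.2 CPM in YOUNG and Rps18 310.2, 378 and 352 CPM in CKO-OLD, against 580.4, 477 and 443 CPM in YOUNG, both lower without overlap. These 2 were the only ones of the 45 ribosomal genes without overlap (4.44% of the list, 9.73% of all genes lower). Ankrd37, a hypoxia-inducible gene, had 2.35, 2.64 and 1.48 CPM in CKO-OLD, against 9.03, 5.58 and 2.22 CPM in YOUNG, with overlap. Antigen presentation genes had a median of -0.24 over 15 (0.0080 against YOUNG 3 alone).

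**Figure D5:**
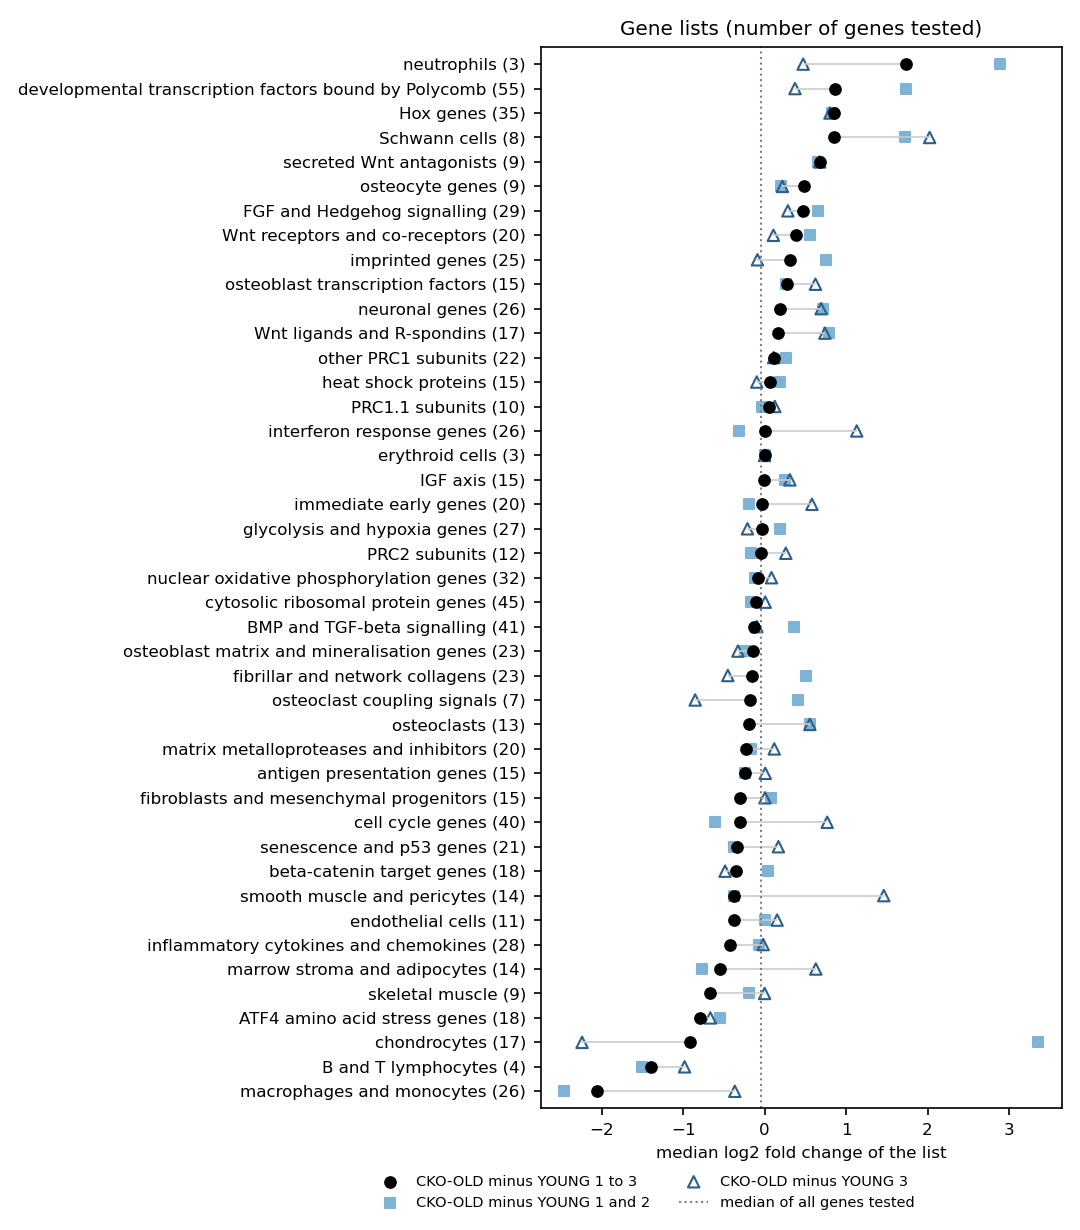
Median log2 fold change (horizontal axis) of each gene list, with the number of genes tested in brackets; black circles are CKO-OLD minus all 3 YOUNG libraries, blue squares minus YOUNG 1 and 2, open triangles minus YOUNG 3, and the dotted line is the median of all genes tested. Hox genes and secreted Wnt antagonists have nearly the same value in each, while chondrocyte, smooth muscle, cell cycle and macrophage lists differ by YOUNG library; lists of 3 or 4 genes are shown but rest on few genes.

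Markers of other cell types give the makeup of the libraries. In bulk samples, fewer cells of a type and less RNA per cell cannot be told apart. All 26 macrophage and monocyte markers were lower in CKO-OLD, 15 with an unadjusted p under 0.05 (6.85% of all genes), and the median was -2.06, but -0.37 with 8 positive against YOUNG 3 alone. Mrc1, a mannose receptor of macrophages, stood at 6.29, 22.7 and 7.7 CPM in CKO-OLD 1, 2 and 3, against 331, 187 and 26.6 CPM in YOUNG 1, 2 and 3 (log2 fold change -3.89 ± 1.01, adjusted p = 0.211). Csf1r, the receptor that macrophages need, had 95.2, 389 and 107 CPM in CKO-OLD, against 1148, 885 and 224 CPM in YOUNG. The summed markers ran from 1520 to 6460 CPM in CKO-OLD and from 4260 to 17500 CPM in YOUNG, and no marker was at 0 in either group. Their part in the inflammatory values above was not tested.

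Chondrocyte markers were high in CKO-OLD 3 and YOUNG 3. Col2a1, cartilage collagen, had 499, 87.4 and 8015 CPM in CKO-OLD 1, 2 and 3, against 48, 27.4 and 13549 CPM in YOUNG 1, 2 and 3, and Acan, the cartilage proteoglycan, had 16.3, 3.1 and 501 CPM in CKO-OLD, against 0.0508, 0.101 and 649 CPM in YOUNG. The chondrocyte list had a median of -0.91, -2.24 against YOUNG 3 alone and 3.36 against YOUNG 1 and 2. Myh11 and Cnn1 were highest in YOUNG 1 and 2. Myh11, a smooth muscle myosin, stood at 0.342, 1.72 and 3.39 CPM in CKO-OLD, against 19.9, 26.4 and 0.174 CPM in YOUNG and Cnn1, calponin, at 17.6, 22.8 and 16.6 CPM in CKO-OLD, against 88.4, 107 and 7.18 CPM in YOUNG, and the list median of -0.37 was 1.46 against YOUNG 3 alone.

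Of the other marker sums given here, those of skeletal muscle alone did not overlap. Of 9 erythroid markers, 7 were at 0 in all 6 libraries, and the sum was at most 0.429 CPM in CKO-OLD and 0.318 CPM in YOUNG. Neutrophil markers summed to 3.04 to 8.79 CPM in CKO-OLD and 0.928 to 6.53 CPM in YOUNG, with S100a9, Ngp and Retnlg at 0 throughout. Lymphocyte markers summed to 36.7 to 69.9 CPM in CKO-OLD and 34.9 to 42.7 CPM in YOUNG, mostly from Ebf1, which stromal cells also express, with Cd3e, Cd3g, Cd8a and Nkg7 at 0 in both. Osteoclast markers summed to 252 to 460 CPM in CKO-OLD and 283 to 488 CPM in YOUNG. Endothelial markers were at 132 to 231 CPM in CKO-OLD and 119 to 190 CPM in YOUNG. Skeletal muscle markers were at 4.79 to 8.02 CPM in CKO-OLD and 8.28 to 36.6 CPM in YOUNG, led by Acta1 with 1.43, 1.86 and 3.11 CPM in CKO-OLD 1, 2 and 3, against 29.3, 29.9 and 4.5 CPM in YOUNG 1, 2 and 3. Among Schwann cell genes, Sox10, their lineage factor, had 6.76, 5.04 and 1.88 CPM in CKO-OLD, against 0.102, 0.362 and 0 CPM in YOUNG, higher without overlap. The 8 Schwann cell markers summed to 58.6 to 80.5 CPM in CKO-OLD and 47.4 to 66.5 CPM in YOUNG, and 3 of them were lower. Of the 8, 3 did not overlap, all higher (37.5% of the list, 9.58% of all genes). Pdgfra, a receptor of mesenchymal progenitors, had 174, 213 and 174 CPM in CKO-OLD, against 31.2, 17.3 and 178 CPM in YOUNG, where YOUNG 3 lay among CKO-OLD. Of 15 fibroblast and progenitor markers, 10 were lower, with a median of -0.30 (0.0046 against YOUNG 3 alone). Ebf3, a stromal factor, had 13, 17.4 and 22.7 CPM in CKO-OLD, against 6.31, 5.51 and 3.48 CPM in YOUNG (1.80 ± 0.51, adjusted p = 0.24). Of 14 marrow stroma and adipocyte markers, 10 were lower, with a median of -0.55 (0.63 against YOUNG 3 alone).

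Within library set 3, CKO-OLD was set against YOUNG 3 alone, with a spread borrowed from the other groups on the assumption that this lone library varies as they do. That fit called 132 genes higher (0.797%) and 197 lower (1.19%). Of the 132, 94 also had CKO-OLD above both YOUNG 1 and 2, and of the 197, 70 had CKO-OLD below both; 12 and 64 lay on the opposite side of YOUNG 1 and 2. Among the lower calls were genes in which YOUNG 3 was far above all other libraries of the groups. Il1rl1, the receptor of interleukin 33, had 42.3, 30 and 16.1 CPM in CKO-OLD 1, 2 and 3, against 14.7, 9.21 and 736 CPM in YOUNG 1, 2 and 3. Mmp10, a stromelysin, had 0.503, 0.595 and 0.732 CPM in CKO-OLD, against 0.305, 0.551 and 106 CPM in YOUNG, and Thbd, thrombomodulin, had 122, 84.3 and 114 CPM in CKO-OLD, against 54.4, 84.6 and 1048 CPM in YOUNG. YOUNG 1 and 2 lay below CKO-OLD in Il1rl1, and YOUNG 2 within it in Mmp10 and Thbd.

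Further genes were called under other settings and are named after their values were seen. Styk1, a receptor kinase-like gene, had 0, 0 and 0 CPM in CKO-OLD 1, 2 and 3, against 7.04, 6.81 and 8.11 CPM in YOUNG 1, 2 and 3, at least 397-fold lower against a floor of 3 counts over the CKO-OLD group (edgeR adjusted p = 0.227). The fit on the 6 libraries alone called 7 of 15274 genes (0.0458%), 5 higher, Tcf24, Gal3st1, Grid1, Tmem200b and Ranbp3l, and 2 lower, Cdsn and Styk1. Gal3st1, a sulfotransferase of sulfatide synthesis, had 12.3, 12.4 and 9.18 CPM in CKO-OLD, against 1.37, 1.38 and 1.27 CPM in YOUNG. Cdsn, corneodesmosin of keratinised epithelium, had 23.7, 17.6 and 18 CPM in CKO-OLD, against 127, 111 and 193 CPM in YOUNG. The set term fit called 4 genes higher, Epop, Tmem200b, Fbxo2 and Isyna1, and 5 lower, Trib3, Adam12, Mmp10, Crct1 and Styk1. Isyna1, the enzyme that makes inositol phosphate from glucose phosphate, had 89.4, 116 and 96.4 CPM in CKO-OLD, against 56, 45.2 and 25.9 CPM in YOUNG (log2 fold change 1.25 ± 0.24, adjusted p = 0.0897).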

How the data were processed

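RNA was sequenced from cultured femoral osteoblasts. The authors deposited whole-number read counts for each gene symbol, with no normalization. FastQC, Trim Galore, HISAT2 and mm39 are named in the submitters' processing notes, without versions; the counting program, annotation and strand setting were, in the sources used here, not given. In all, the table holds 26264 symbols; of these, 20832 were counted at least once and 24964 stand in the name table used here. The 8 CUT&Tag samples were not analysed here, and 0 columns of per-sample values were left unmapped. Total counts ran from 46272076 to 77698781, so that 1 count is worth 0.0127 to 0.0201 CPM in the 6 libraries; intervals and floors cover counting error only.

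Groups were taken from titles. Genes were kept by edgeR filterByExpr (minimum count 10, minimum total 15), scaled by TMM and tested with the quasi-likelihood F test, robust, two-sided, with 1 coefficient per group over 18 libraries (12 residual degrees of freedom, biological coefficient of variation 51.9%) and Benjamini-Hochberg adjustment over 16566 genes at 0.05. An adjusted p in the text is from this test unless another fit is named; fold changes are CKO-OLD minus YOUNG on the log2 scale. Alternatives were DESeq2, limma-voom, RLE scaling, other filters, the 6 libraries alone, a replicate block, a library set term, library set 3 alone, a test against a 2-fold change and leaving out each library. A fold against a group at 0 used a floor of 3 counts over that group. The script was tested on simulated data.

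Named genes were Kdm2b, Axin2, Lef1, Bglap and Cdkn2a; the 12 per direction of largest change among called genes or, as none was called, of smallest p among non-overlapping genes averaging 5 CPM or more in whichever group was higher, without predicted, Xist or Y-linked symbols; and the 2 members of smallest p in each of 43 lists. Other members were named after their values were seen, and some genes are not reported here. The comparison, its lists and tests were chosen with earlier results of these data known. Library set 3 holds libraries with a Malat1 share above 0.05%; the others form set 1 (YOUNG and OLD) and set 2 (the other groups). Promoter windows are from RefSeq GRCm38.p6; 14 of the 24 leading genes had exactly 1. No 2 libraries of a group agreed within counting noise: median squared differences were 29.1 to 147 times that noise in CKO-OLD and YOUNG. In OLD the value was 6.22 for OLD 1 with OLD 3, and 86.6 and 86.3 for OLD 2 with OLD 1 and OLD 3. Python 3.11.15 with pandas 2.3.3 and matplotlib 3.10.9 was used for sequences and plots, and R 4.3.3 with limma 3.58.1, DESeq2 1.42.0 and edgeR 4.0.16 for the fits.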

Additional observations from a re-analysis of the deposited data

How the results depend on the processing

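The edgeR count of 0 for CKO-OLD against YOUNG held with RLE scaling, both other filters, a test against a 2-fold change and the replicate block, and was 349 with DESeq2, 2 with limma-voom, 7 on the 6 libraries alone, 9 with a library set term, 329 within library set 3, and 0 to 3 with single libraries left out, the 3 without YOUNG 3. The cause was not tested. Same-numbered libraries deviated together with correlations of -0.0131, 0.294 and 0.265. CKO-OLD 1 correlated best with YOUNG 3 (0.118), and CKO-OLD 2 and 3 with the YOUNG library of their own number. With so few libraries, and YOUNG 3 apart from YOUNG 1 and 2, this cannot decide whether the replicate numbers pair them. The replicate block called 0. CKO-OLD against OLD gave 1 call (0.00604%), 2 without a filter, 180 with DESeq2 and 0 to 48 leaving out 1 library. OLD against YOUNG gave 0, 40 with DESeq2 and 0 to 2. CKO-YOUNG against CON-YOUNG gave 21, 227 with DESeq2 and 2 to 26. CON-OLD-iBP against CON-YOUNG gave 1680, 3120 with DESeq2 and 35 to 4567; RLE gave 561 higher and 970 lower, against 511 and 1169. Of 1716 values of the 109 named genes under alternatives, 1600 kept direction and side of the threshold, 84 passed it newly and 32 changed sign. With the set term those were Axin2 (-0.153), Ifi27l2a (0.272), Psmb9 (0.274), Psmb10 (0.348), Atf3 (0.565), Ankrd37 (0.0438), Uqcrfs1 (0.00718), Tnfrsf11a (0.684), Klf1 (0.145), Kdr (0.0312), Cfd (0.237) and Cnn1 (0.0686). Within library set 3 they were Axin2 (-0.545), Cdkn2a (0.187), Igfbp2 (0.31), Tnfaip3 (0.0447), Psmb10 (0.431), Klf6 (0.199), Atf3 (1.03), Tnfrsf11a (0.46), Kdr (0.154), Myh11 (3.37) and Cnn1 (1.4). Leaving out 1 library, Kdm2b ran from -0.325 to 0.399, Lef1 from -1.38 to 0.187, Bglap from -0.398 to 0.123, Tnfrsf11b from -3.46 to 1.74 and Klf1 from -1.11 to 0.446. Depth limits genes at a few counts, such as Fgf23.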
